A study of Mus musculus with 2 samples.

Results

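A set of 10 genes of the interleukin-1 (IL-1) system and its partner cytokines was followed through every cell class of 2 single-cell RNA-seq libraries of mouse aorta. It holds the agonists Il1a and Il1b, the antagonist Il1rn, the receptor Il1r1, the decoy receptor Il1r2, the inflammasome sensor Nlrp3, the protease Casp1, and the cytokines Il18, Tnf and Il6. The genes were chosen by name, as 10 of the 32285 genes in the count matrices, and all 10 had UMIs (unique molecular identifiers, each marking 1 captured RNA molecule) in both libraries. Both groups were ApoE-/- mice of C57BL/6 background on a Western diet, which raises plasma cholesterol and produces arterial plaques. The WT group had no deletion beyond ApoE, and mice of the EC-iCD45KO group also lacked CD45, a leukocyte phosphatase, in endothelial cells (EC) after tamoxifen. The Cre driver, age, number of animals and any pooling are not given in the sources used here. Aortic cells were dissociated with enzymes and enriched on beads carrying an antibody to CD31, so the shares of cell classes are those of a bead-enriched suspension.

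IL-1α and IL-1β signal through the receptor encoded by Il1r1, which recruits an accessory chain and activates NF-kB. The antagonist encoded by Il1rn binds that receptor without signalling, and the decoy encoded by Il1r2 binds IL-1 and has no signalling domain. The NLRP3 inflammasome activates caspase-1, which cuts pro-IL-1β and pro-IL-18 into their secreted forms. TNF and IL-6 are inflammatory cytokines, and IL-6 is a common product of stromal and endothelial cells exposed to IL-1. In plaques of hypercholesterolaemic mice, macrophages and neutrophils are known sources of IL-1β. Transcript levels say nothing of cleavage or secretion, which were not measured.

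The promoters of Il1b, Nlrp3 and Il6 are shown because Il1b and Nlrp3 had the most similar levels across cell classes of any pair formed by a member and another gene, whereas Il6 had its highest level in fibroblast-like cells. The sequences are those of RefSeq on GRCm38.p6, given from 250 bases before the start to the base before it, on the gene's strand and 5′ to 3′. They lie at chr2:129371140-129371389 on the minus strand for Il1b, chr11:59541319-59541568 on the plus strand for Nlrp3 and chr5:30012864-30013113 on the plus strand for Il6. Capitals mark matches, on either strand, to the motifs searched.
Il1b: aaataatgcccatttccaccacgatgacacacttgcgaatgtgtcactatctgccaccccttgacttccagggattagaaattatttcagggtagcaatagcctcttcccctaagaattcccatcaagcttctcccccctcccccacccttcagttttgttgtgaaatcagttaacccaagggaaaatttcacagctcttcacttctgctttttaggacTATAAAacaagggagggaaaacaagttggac
Nlrp3: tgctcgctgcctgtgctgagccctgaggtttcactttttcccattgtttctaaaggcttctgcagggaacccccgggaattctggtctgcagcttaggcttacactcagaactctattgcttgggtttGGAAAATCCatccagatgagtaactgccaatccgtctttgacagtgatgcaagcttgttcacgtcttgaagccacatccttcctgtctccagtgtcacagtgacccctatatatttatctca
Il6: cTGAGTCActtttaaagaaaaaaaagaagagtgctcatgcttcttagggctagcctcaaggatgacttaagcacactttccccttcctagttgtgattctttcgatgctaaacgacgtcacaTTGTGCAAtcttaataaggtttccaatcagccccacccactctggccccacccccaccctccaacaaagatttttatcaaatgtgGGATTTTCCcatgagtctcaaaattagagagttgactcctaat
Motifs were searched in windows of 300 bases that also took in 50 bases after the start. The search used GGANTTTCC for NF-kB, TGANTCA for AP-1, TTGCNNAA for C/EBP, GAGGAAGT for PU.1 and TATAAA for the TATA box. The Il1b window held a TATA box starting at -31, and the Nlrp3 window held the NF-kB letters at -122 on the other strand. The Il6 window held the NF-kB letters at -43, the AP-1 letters at -249 and the C/EBP letters at -128 on the other strand. Of 32851 RefSeq promoter windows, 1.254% held the NF-kB letters, 7.81% the AP-1 letters, 10.8% the C/EBP letters, 3.20% the PU.1 letters and 13.6% the TATA box. Among the other members, the TATA letters were found at -32 in Il1a, at -29 in Tnf and, on the other strand, at -175 in Il18 and at 15 in a further Il1rn window. The AP-1 letters were at -12 in Il1a and -141 in Il1rn, and the C/EBP letters at -133 in Il1r1. No member held the PU.1 letters.

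The WT library held 39849 barcodes with 92058043 UMIs and a median of 1548 UMIs, and the EC-iCD45KO library held 30278 barcodes with 88967918 UMIs and a median of 1405. The libraries shared 340 barcodes, 0.853% of the WT and 1.12% of the EC-iCD45KO barcodes. After filtering, 35553 and 26064 cells were kept. Clusters were called X-like from marker genes that excluded the 10 members. Neutrophil-like cells numbered 405 in WT and 1026 in EC-iCD45KO (1.14% and 3.94% of cells kept), and macrophage-like cells 3203 and 7676 (9.01% and 29.5%). B-like cells numbered 5775 and 338, and T/NK-like cells 4144 and 504. EC-like cells numbered 3958 and 4113, smooth muscle cell (SMC)-like cells 2169 and 3438, and fibroblast-like cells 2143 and 2405, so most cells of both libraries were not EC-like. Unnamed clusters held 28.8% of WT and 17.6% of EC-iCD45KO cells. Levels are given as CPM, the UMIs of a gene per 1000000 UMIs of the cells of a class. Ptprc, which encodes CD45, stood at 295.5 CPM in WT and 110.7 CPM in EC-iCD45KO EC-like cells, a log2 ratio of EC-iCD45KO over WT of -1.42 (-1.52 to -1.31). It was also lower in SMC-like cells (158.6 and 85.5 CPM), in fibroblast-like cells (301.6 and 130.0 CPM) and in macrophage-like cells (490.2 and 275.5 CPM). T/NK-like cells had 1091 and 831 CPM, and neutrophil-like cells went the other way, with 952 and 1793 CPM, a ratio of 0.91 (0.79 to 1.04). The T/NK and B markers were lower too in EC-like, SMC-like and fibroblast-like cells, with values given below, and their part in the Ptprc values was not tested. The deleted exons are not given in the sources used here, so Ptprc tags may lie outside them. With a single library on each side, differences had no replicate check and no test between groups was made. Parentheses hold 95% intervals, which cover counting error alone. For a count of 0, the value it allows is that of 3 counts over the same total, and a difference between the libraries cannot be told apart from one between preparations.

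**Figure D1:**
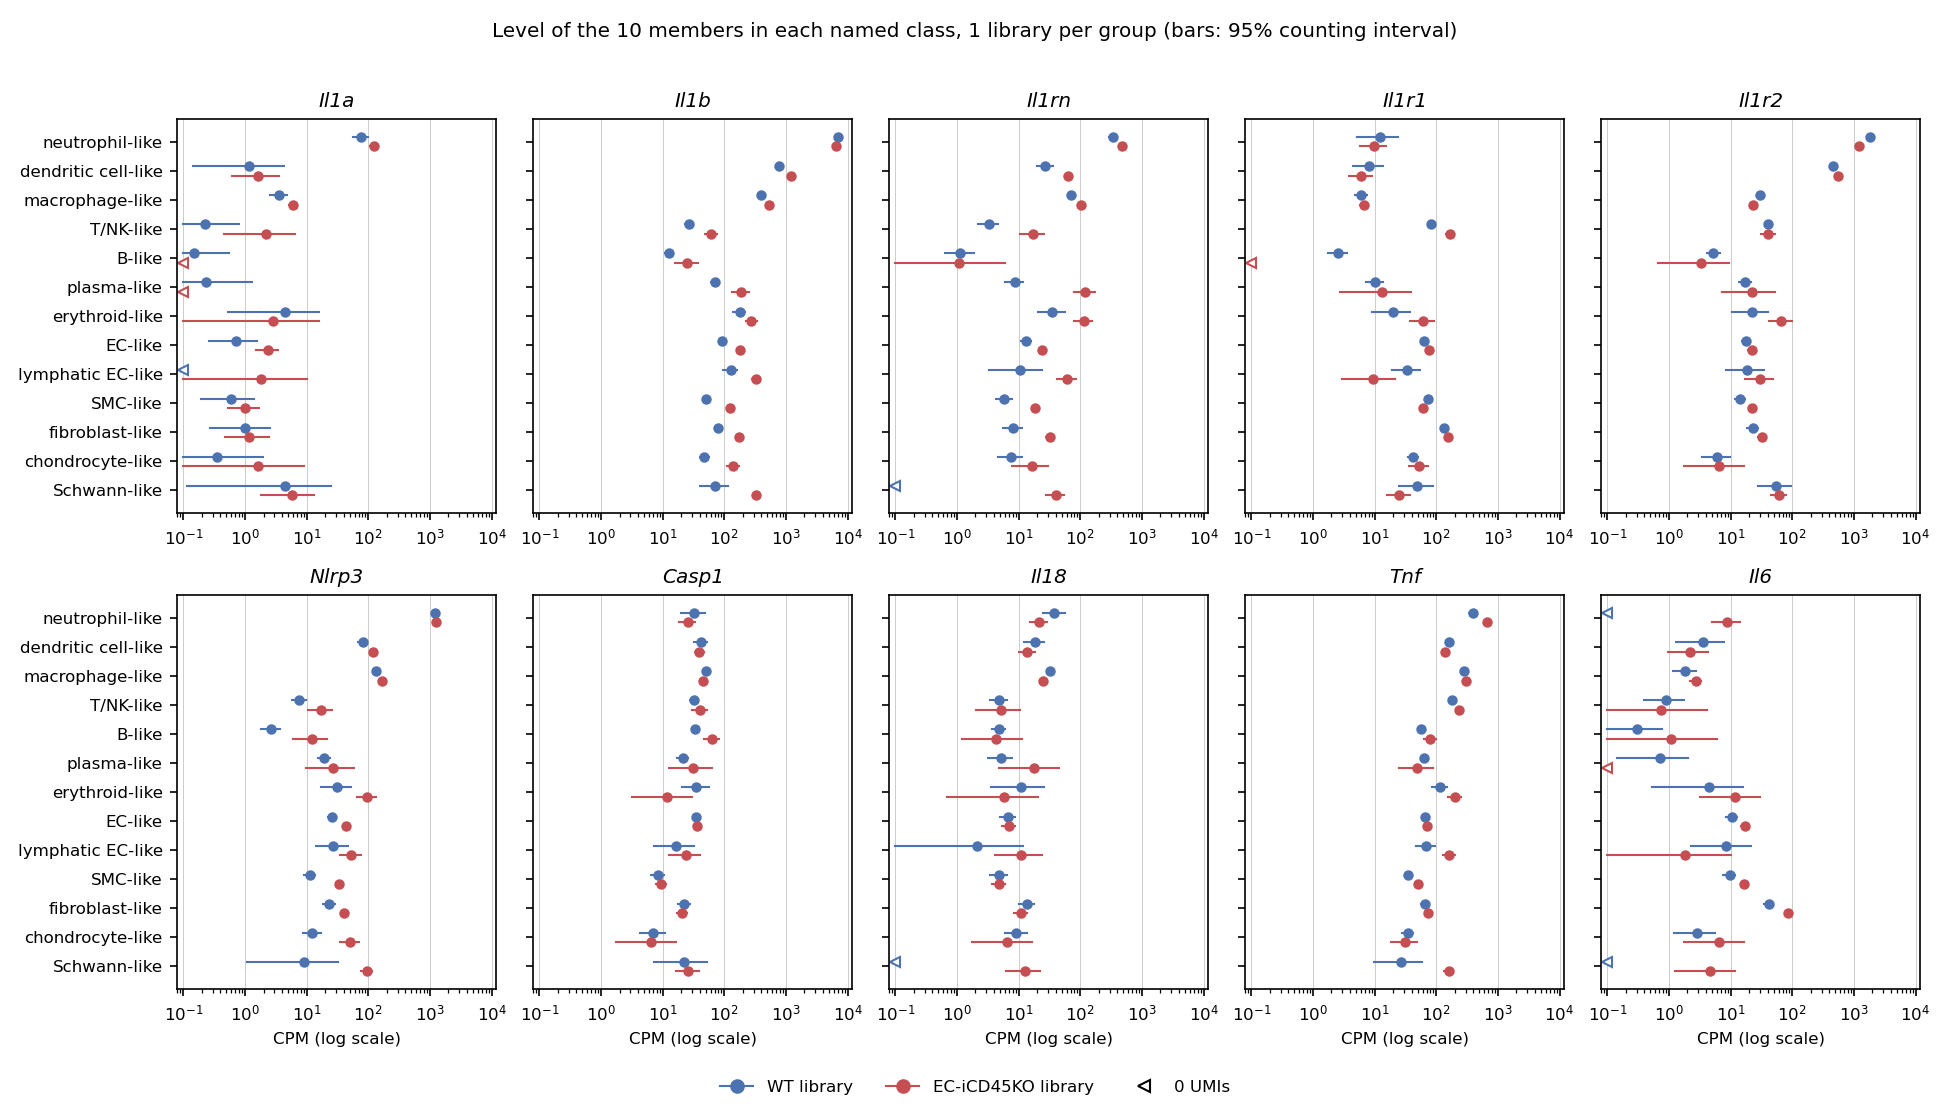
Level of each member in 13 named cell classes, on a log CPM axis, with WT in blue and EC-iCD45KO in red; bars are 95% Poisson intervals and open triangles mark 0 UMIs. Neutrophil-like cells stand highest for Il1b (7124 and 6564 CPM), Il1r2 (1835 and 1228) and Nlrp3 (1195 and 1234), whereas Il6 peaks in fibroblast-like cells (41.4 and 86.9).

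Il1b encodes the secreted agonist IL-1β and lies on the minus strand at chr2:129364570-129371139 (GRCm38). It was highest in neutrophil-like cells of both libraries, at 7124 CPM in WT (6922 to 7331) against 6564 CPM in EC-iCD45KO (6448 to 6682). Dendritic cell-like cells followed at 776 CPM (735 to 819) and 1226 CPM (1190 to 1263), and macrophage-like cells at 392 CPM (381 to 403) and 532 CPM (524 to 540). The order of these 3 classes was the same in both libraries, and none of their intervals overlapped. After each cell was thinned to 1000 UMIs, 85.8% (80.9 to 89.9) of neutrophil-like cells in WT and 88.9% (86.4 to 91.1) in EC-iCD45KO had an Il1b UMI, with a median of 6 Il1b UMIs per cell in both. The shares were 38.0% and 51.3% in dendritic cell-like cells and 22.3% and 29.0% in macrophage-like cells. Unthinned, these 3 shares were 87.9% and 86.7%, 54.4% and 68.3%, and 35.3% and 45.0%. SMC-like cells, taken as the reference class although stimulated smooth muscle can make IL-1β, reached 7.46% and 13.3% after thinning and 11.1% and 22.98% before it. The median depths in WT and EC-iCD45KO were 1100 and 1352.5 UMIs for neutrophil-like, 3754 and 2174.5 for dendritic cell-like, 3480 and 3444.5 for macrophage-like and 1572 and 1480 for SMC-like cells. The shares in EC-like cells, 7.83% and 14.6%, lay within the intervals of the SMC-like shares, which ran from 6.22% to 8.84% in the WT library and from 12.0% to 14.7% in the other, so EC-like cells did not stand above the reference class.

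Between the libraries, Il1b in neutrophil-like cells had a log2 ratio of EC-iCD45KO over WT of -0.12 (-0.17 to -0.07), which ran from -0.232 as a mean of single-cell CPM to -0.003 with stricter cell filters, and was -0.010 with TMM scaling. The mean per thinned neutrophil-like cell was 7.98 and 7.96 Il1b UMIs. It was higher in dendritic cell-like cells, at 0.66, and in macrophage-like cells, at 0.44 (0.40 to 0.49). Its log2 ratio was larger in classes with less Il1b, at 1.33 (1.17 to 1.49) in SMC-like, 1.11 in fibroblast-like and 0.98 (0.86 to 1.10) in EC-like cells. Over all cells kept, Il1b stood at 195 CPM in the WT library and 525 CPM in the EC-iCD45KO library. Macrophage-like cells held 30.5% of the Il1b UMIs in WT and 42.6% in EC-iCD45KO, and neutrophil-like cells held 28.2% and 27.8%.

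The markers of other classes also differed between the libraries. The 11 neutrophil markers summed to 199 CPM in WT and 300.2 CPM in EC-iCD45KO SMC-like cells, with all 11 higher in EC-iCD45KO and Ly6g at 0 in WT. They summed to 622 and 827 CPM in EC-like cells, with 9 of 11 higher and Ly6g at 0 in EC-iCD45KO, and to 285 and 426 CPM in fibroblast-like cells, with Ly6g at 0 in both libraries. The 11 macrophage markers, such as C1qa and Adgre1, summed to 1348 and 2796 CPM in SMC-like, 3059 and 3903 CPM in EC-like and 3342 and 4115 CPM in fibroblast-like cells, with none at 0. For every 100 neutrophil-marker UMIs there were 25.1 and 41.7 Il1b UMIs in SMC-like cells, 14.7 and 21.8 in EC-like cells and 27.7 and 25.1 in neutrophil-like cells. Their part in the stromal and endothelial Il1b values was not tested.

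**Figure D2:**
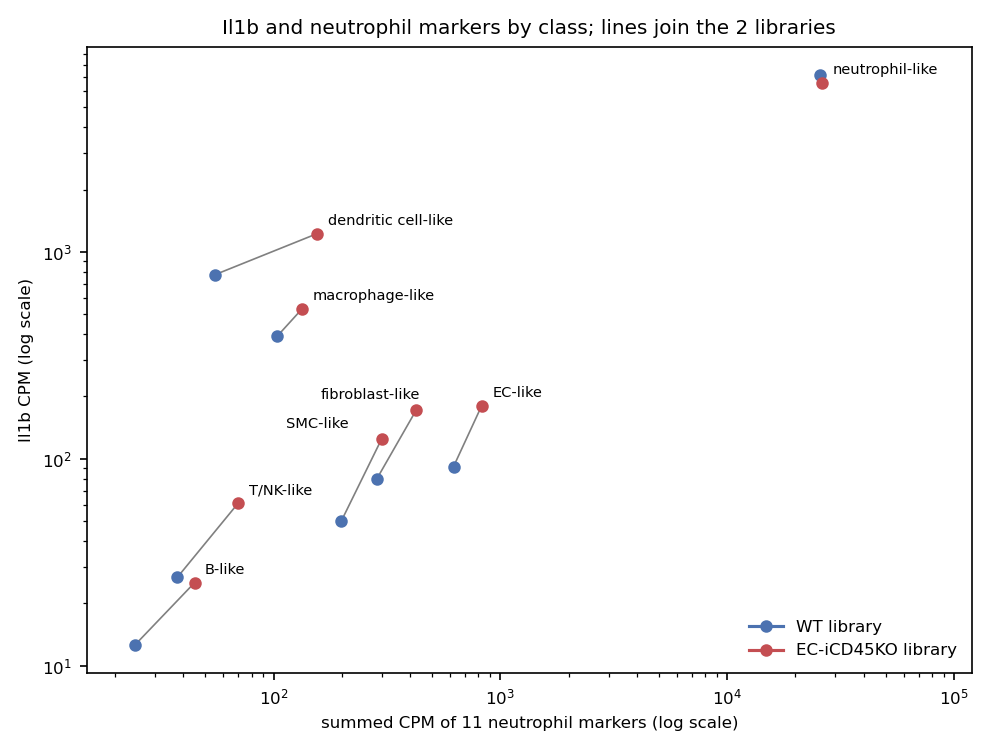
Il1b level against the summed level of 11 neutrophil markers in 8 classes, both on log axes, with each class's WT point (blue) joined to its EC-iCD45KO point (red). EC-like, SMC-like and fibroblast-like points lie to the upper right in EC-iCD45KO on both axes, while neutrophil-like cells have 25763 and 26200 marker CPM and macrophage-like cells hold more Il1b at fewer neutrophil markers.

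Macrophage-like cells fell into 4 clusters in different proportions. The cluster led by Zmynd15 and Stmn4 held the largest share of WT cells of the class (29.0%, against 15.0% in EC-iCD45KO), and the cluster led by Gpnmb and Mmp12 the largest share of EC-iCD45KO cells (36.0%, against 21.2% in WT). Il1b was highest in the cluster led by Chil3, at 829 CPM in WT against 1059 CPM in EC-iCD45KO, for a log2 ratio of 0.35 (0.29 to 0.42). In the cluster led by Ccl12 and Mrc1 it was 339 and 671 CPM, a ratio of 0.99 (0.89 to 1.08), and in the Gpnmb cluster 81.6 and 179 CPM, a ratio of 1.14 (0.93 to 1.35). The Zmynd15 cluster went the other way, with 306 and 206 CPM, a ratio of -0.57 (-0.68 to -0.46).

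A second round of clustering within the class separated 4 named subtypes. Unnamed sub-clusters held 40.2% of the class in WT and 32.8% in EC-iCD45KO, with 337 and 453 CPM of Il1b. Monocyte-derived-like cells, most of them in a sub-cluster led by Cxcl3 and F10, had 804 CPM of Il1b in WT and 999 CPM in EC-iCD45KO. That sub-cluster held 242 WT and 1189 EC-iCD45KO cells. The other, led by Pglyrp1 and Plac8, held 93 and 78, so the make-up of this subtype also differed between the libraries. Interferon-like cells, led by Ighg3 and Ifit3, had 854 and 539 CPM, a log2 ratio of -0.66 (-0.83 to -0.50). Resident-like cells, with Ccl8, Mrc1 and Cbr2 among their leading genes, had 175 and 463 CPM, a ratio of 1.41 (1.20 to 1.61). Foamy Trem2-like cells, which resemble the lipid-loaded macrophages of plaques, had 102 and 247 CPM, a ratio of 1.28 (1.03 to 1.54), but were made up of different sub-clusters in the libraries. The sub-cluster led by Fabp5 and Gpnmb held 112 WT and 665 EC-iCD45KO cells, and the one led by Mfge8 and Bex1 held 117 and 14. Within the Fabp5 sub-cluster Il1b stood at 189 and 252.5 CPM, a ratio of 0.42 (0.16 to 0.68), and the Mfge8 sub-cluster had 7.53 CPM in WT, from 5 UMIs. Interferon-like cells made up 10.5% of macrophage-like cells in WT and 1.77% in EC-iCD45KO, and without them the Il1b ratio of the class was 0.63 (0.58 to 0.68). Mixed sub-clusters, with markers of SMC, EC, B cells, fibroblasts or kidney tubule, held 21.7% and 32.1% of the class, and without them the ratio was 0.45.

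Il1a, the agonist that acts without cleavage, lies beside Il1b on the minus strand at chr2:129299610-129309972, with 161 UMIs in WT and 523 in EC-iCD45KO. It was highest in neutrophil-like cells, at 75.9 CPM in WT (56.4 to 100.1) against 124 CPM in EC-iCD45KO (108 to 141), for a log2 ratio of 0.71 (0.26 to 1.18). Macrophage-like cells had 3.54 and 6.00 CPM. The share of neutrophil-like cells with an Il1a UMI after thinning was 7.29% and 8.58% (8.64% and 10.6% unthinned), against 0.0616% and 0.123% in SMC-like cells. Each of the 18 WT and 62 EC-iCD45KO thinned neutrophil-like cells with an Il1a UMI also had an Il1b UMI. The antisense transcript Gm14023, with 418 and 451 UMIs, overlaps Il1a, and the antisense Il1bos, with 66 and 125, overlaps Il1b. Strand use in counting is not given in the sources used here, so the reads of each pair may not be told apart.

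Il1rn, which encodes the receptor antagonist at chr2:24336853-24351494, was also highest in neutrophil-like cells. It stood at 339 CPM in WT (296 to 386) against 476 CPM in EC-iCD45KO (445 to 509) neutrophil-like cells, a log2 ratio of 0.49. Macrophage-like cells had 70.9 CPM (66.4 to 75.7) and 104 CPM (100.4 to 107), a ratio of 0.55 (0.44 to 0.66). Dendritic cell-like cells had 27.1 and 64.1 CPM, a ratio of 1.24, the only member past 2-fold in that class. Il1rn differed more in fibroblast-like cells, at 8.23 and 32.4 CPM, and in SMC-like cells, at 5.90 and 18.5 CPM. The thinned shares in fibroblast-like cells were 1.15% and 4.33%. The neutrophil and macrophage markers given above were also higher in these 2 classes, and their part in the Il1rn values was not tested. In EC-iCD45KO, plasma-like cells (120.5 CPM, from 27 UMIs) and erythroid-like cells (113 CPM, from 39 UMIs) stood above macrophage-like cells, with overlapping intervals, and in WT they had 8.70 and 35.5 CPM. The thinned shares were 24.7% and 31.4% in neutrophil-like, 5.57% and 8.53% in macrophage-like and 3.56% and 5.95% in dendritic cell-like cells, against 1.11% and 2.88% in SMC-like cells. EC-like cells, at 1.35% and 2.66%, did not exceed the SMC-like intervals.

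The balance of antagonist to agonist transcripts differed between macrophage subtypes. Il1rn made up 37.8% (31.4 to 44.5) of Il1rn and Il1b UMIs in WT and 32.1% (30.02 to 34.18) in EC-iCD45KO foamy Trem2-like cells. It made up 14.4% and 16.9% in monocyte-derived-like, 14.2% and 19.5% in interferon-like and 8.47% and 4.60% in resident-like cells. The lowest shares in WT were those of neutrophil-like cells, 4.54% and 6.76%, and dendritic cell-like cells, 3.37% and 4.97%. The foamy Trem2-like share lay above the other 3 named subtypes in both libraries, with no overlap of intervals. It was 29.3% (22.97 to 36.3) and 31.5% (29.5 to 33.6) in the Fabp5 sub-cluster, and 85.3% and 85.0% in the Mfge8 sub-cluster, from 34 and 20 UMIs. Unnamed and mixed sub-clusters are outside this comparison. The Gpnmb cluster of the first round held 197 Il1rn and 211 Il1b UMIs in WT, so a high share was not particular to the foamy Trem2-like cells.

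**Figure D3:**
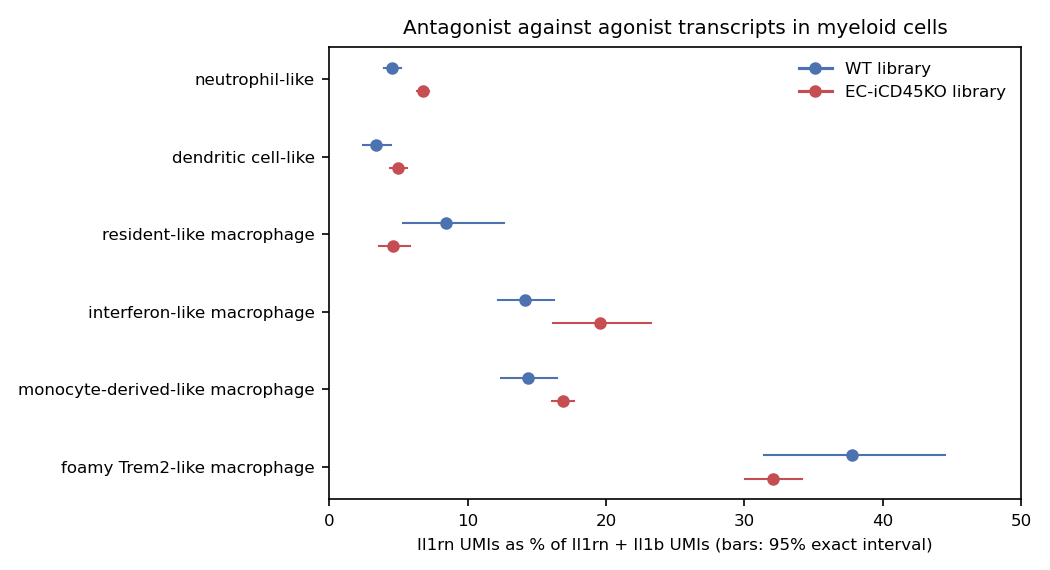
Il1rn UMIs as a percentage of Il1rn plus Il1b UMIs in 6 myeloid groups, with WT in blue, EC-iCD45KO in red and 95% Clopper-Pearson intervals as bars. Foamy Trem2-like cells stand at 37.8% and 32.1%, above the range of 3.37% to 19.5% over the other groups shown, which leave out unnamed and mixed sub-clusters.

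Il1r1, the signalling receptor at chr1:40225080-40317257, had its higher levels outside the myeloid classes. Fibroblast-like cells had 134 CPM in WT (123 to 146) against 155 CPM in EC-iCD45KO (146 to 166), for a log2 ratio of 0.21 (0.06 to 0.37). EC-like cells had 64.3 CPM (59.0 to 69.9) and 75.2 CPM (70.0 to 80.7), a ratio of 0.23 (0.07 to 0.39). SMC-like cells had 74.9 CPM (69.1 to 81.0) and 60.3 CPM (56.2 to 64.7), a ratio of -0.31 (-0.46 to -0.16), and the order of SMC-like and EC-like cells was the reverse in the 2 libraries, although their WT intervals overlapped. Macrophage-like cells had 6.01 and 6.63 CPM and neutrophil-like cells 12.2 and 9.79 CPM, the latter from 8 and 18 UMIs. The thinned shares were 9.05% and 10.4% in fibroblast-like, 5.38% and 6.12% in EC-like and 6.29% and 5.18% in SMC-like cells. Thinned to 2000 UMIs, the fibroblast-like shares turned to 25.1% in WT and 22.2% in EC-iCD45KO. B-like cells, used as the background for this gene, had 0.242% in WT and 0 of 312 cells in EC-iCD45KO, which allows up to 0.962%, at median depths of 2007 and 2549 UMIs. Median depths were 1360 and 1358 UMIs in EC-like and 1233 and 1239 in fibroblast-like cells, and unthinned shares were 8.89% and 9.99%, and 15.7% and 19.2%.

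Within each class 1 cluster had the highest level in both libraries. Among EC-like cells, the cluster led by Ackr1 and Selp, genes of venous endothelium, had 106 and 128 CPM and held 72.4% and 80.3% of the class's Il1r1 UMIs. The cluster led by Stmn2, Sfrp1 and Gja5, the last a gene of arterial endothelium, had 29.3 and 27.6 CPM, and the cluster led by Gpihbp1 and Car4, genes of capillary endothelium, had 37.0 and 29.0 CPM. The log2 ratio was 0.27 (0.09 to 0.46) in the Ackr1 cluster, -0.09 (-0.51 to 0.33) in the Gja5 cluster and -0.35 (-0.92 to 0.22) in the Gpihbp1 cluster. Among fibroblast-like cells, the Sfrp4 cluster had 212 and 202 CPM and the C7 and Clec3b cluster 81.6 and 101.5 CPM. With clusters weighted equally, the fibroblast-like ratio was 0.05, against 0.21 for the pooled class. Among SMC-like cells, the Vcam1 and Itih4 cluster had 85.2 and 63.9 CPM, a ratio of -0.42 (-0.59 to -0.24), and the other cluster, led by Cnn1 and Myl9, had 48.6 and 54.1 CPM, a ratio of 0.15 (-0.17 to 0.49). The Vcam1 cluster made up 30.2% of SMC-like cells in WT and 23.1% in EC-iCD45KO, and held 81.7% and 67.8% of their Il1r1 UMIs. Its cells had medians of 8106.5 and 9830 UMIs, against 1182 and 1195 in the other SMC-like cluster. Sfrp4 cells likewise had 4230 and 5684, against 1102 and 1063 in the C7 and Clec3b cluster. CPM pooled over a class therefore weights these deeper cells more, and whether they hold doublets was not tested beyond the removal by score.

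Il1r1 was also high in T/NK-like cells, at 82.5 CPM in WT against 166 CPM in EC-iCD45KO, for a log2 ratio of 1.01 (0.78 to 1.22). Nearly all of it lay in the cluster led by Trdc, Tcrg-C1 and Il23r, genes known from γδ T cells, which held 94.9% and 98.7% of the class's Il1r1 UMIs. Inside that cluster Il1r1 stood at 429 and 379 CPM, a ratio of -0.18 (-0.40 to 0.04). The cluster made up 19.9% of T/NK-like cells in WT and 43.9% in EC-iCD45KO, so the class ratio of 1.01 was not present within the cluster.

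**Figure D4:**
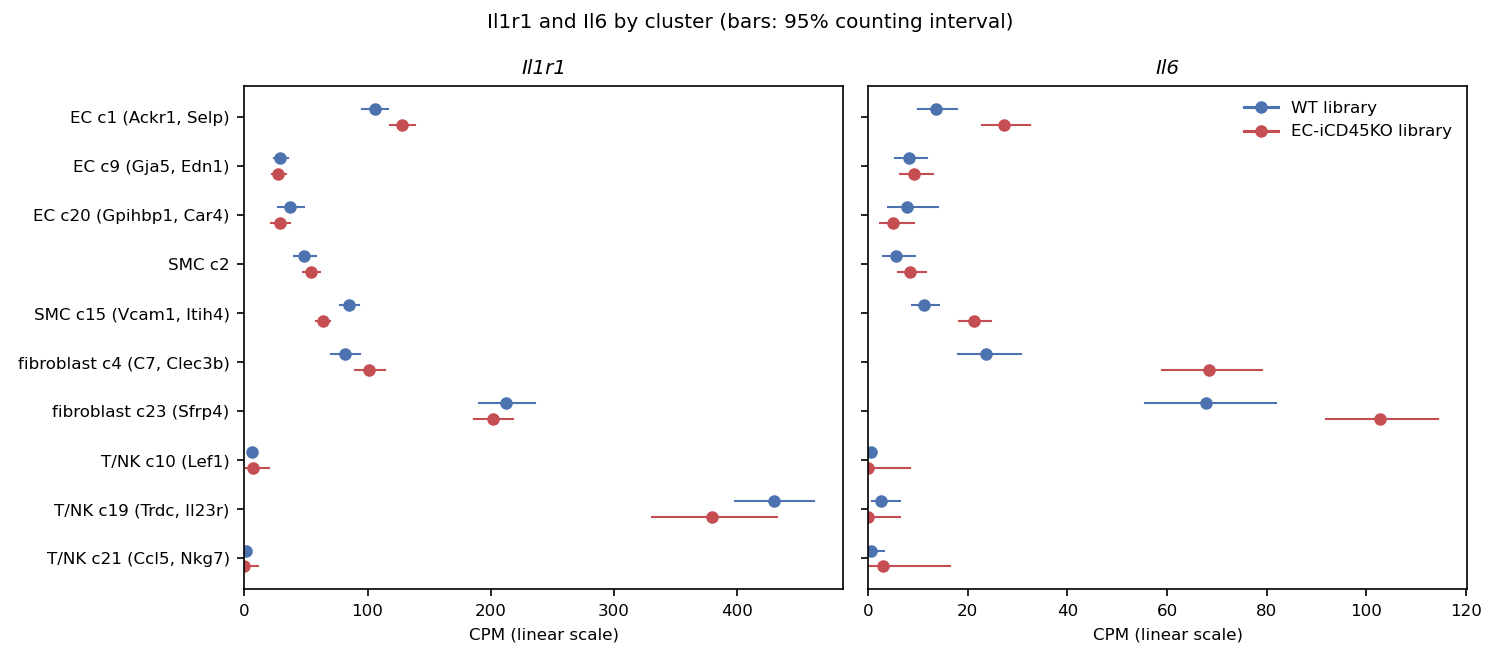
Il1r1 (left) and Il6 (right) CPM, on linear axes, in the clusters of EC-like, SMC-like, fibroblast-like and T/NK-like cells, with WT in blue, EC-iCD45KO in red and 95% Poisson intervals as bars. The Trdc cluster of T/NK-like cells has the highest Il1r1 (429 and 379), and the fibroblast-like Sfrp4 cluster the highest Il6 (67.8 and 103).

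Il1r2, the decoy receptor at chr1:40074079-40125231, had the opposite distribution to Il1r1. Neutrophil-like cells had 1835 CPM in WT (1733 to 1941) against 1228 CPM in EC-iCD45KO (1178 to 1279), for a log2 ratio of -0.58 (-0.68 to -0.48). The share of neutrophil-like cells with an Il1r2 UMI after thinning was 67.2% (61.0 to 73.0) and 56.0% (52.3 to 59.7), and 70.4% and 56.4% unthinned, against 2.77% and 2.79% in SMC-like cells. Among these neutrophil-like cells, Il1r2 was found in 72.2% of those with and 37.1% of those without Il1b in WT, and in 61.0% and 16.3% in EC-iCD45KO. Dendritic cell-like cells had 463 CPM (432 to 497) and 550 CPM (526 to 575), a ratio of 0.25. Macrophage-like cells had 30.04 and 23.11 CPM, and the thinned shares of the whole class, 2.60% and 2.57%, did not exceed the SMC-like shares. The Chil3 cluster did, with 96.3 and 54.9 CPM and shares of 7.57% (5.80 to 9.68) and 4.88% (3.75 to 6.23), against SMC-like intervals of 2.03% to 3.69% and 2.18% to 3.53%. Interferon-like cells had 130.0 and 64.8 CPM. The other macrophage-like clusters did not follow, with 11.1 and 18.8 CPM in the Mrc1 cluster, a ratio of 0.75 (0.24 to 1.30), 6.78 and 10.25 CPM in the Zmynd15 cluster and 13.2 and 13.1 CPM in the Gpnmb cluster. In T/NK-like cells Il1r2 lay mostly in the cluster led by Lef1 and Izumo1r, with 59.3 and 110.3 CPM, the latter from 48 UMIs.

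Of the UMIs of both receptors, Il1r2 gave 99.3% and 99.2% in neutrophil-like and 98.3% and 98.9% in dendritic cell-like cells. It gave 83.3% and 77.7% in macrophage-like cells, 21.7% and 22.8% in EC-like cells and 14.6% and 17.1% in fibroblast-like cells. In SMC-like cells it gave 16.1% in WT (13.5 to 18.9) against 27.3% in EC-iCD45KO (24.7 to 30.1), and the neutrophil markers given above were also higher in that class. Within its clusters, Il1r2 gave 48.4% and 49.5% in the Cnn1 cluster, and 2.31% and 8.16% in the deeper Vcam1 cluster. The pooled SMC-like Il1r2 ratio was 0.66 (0.35 to 0.98), and the size of the difference at equal depth varied with the depth chosen. The share of SMC-like cells with an Il1r2 UMI was 2.77% and 2.79% at 1000 UMIs, 1.33% and 4.10% at 2000 UMIs and 4.01% and 5.70% unthinned. Of the UMIs of both receptors in the Trdc cluster, Il1r2 gave 2.53% and 3.06%. The decoy gave most receptor UMIs in the 3 myeloid classes and the signalling receptor most in the EC-like, SMC-like and fibroblast-like classes and the Trdc cluster. The accessory chain gene Il1rap stood at 286 and 281 CPM in neutrophil-like, 16.4 and 15.6 CPM in EC-like and 20.0 and 23.5 CPM in fibroblast-like cells.

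Nlrp3, the inflammasome sensor at chr11:59541568-59566956, ran with Il1b. Neutrophil-like cells had 1195 CPM in WT (1113 to 1282) against 1234 CPM in EC-iCD45KO (1184 to 1286), for a log2 ratio of 0.05 (-0.07 to 0.17). Macrophage-like cells had 133 CPM (126 to 139) and 167 CPM (163 to 172), a ratio of 0.34, and dendritic cell-like cells 81.2 and 120 CPM, a ratio of 0.57. The thinned shares were 58.7% and 61.6% in neutrophil-like and 12.3% and 15.1% in macrophage-like cells, against 2.34% and 4.44% in SMC-like cells. EC-like cells had 25.8 and 43.8 CPM, a ratio of 0.76 (0.526 to 1.003), and thinned shares of 2.34% and 5.16%, which lay within the SMC-like intervals. SMC-like cells had 11.3 and 33.1 CPM, a ratio of 1.55, beside the higher neutrophil and macrophage markers given above. Among the 4 named macrophage subtypes Nlrp3 was lowest in foamy Trem2-like cells, at 50.8 and 105 CPM, a ratio of 1.05 (0.69 to 1.43) that was 0.42 (0.03 to 0.84) within the Fabp5 sub-cluster. It was 183 and 223 CPM in resident-like cells and 212 and 152 CPM in interferon-like cells, a ratio of -0.48 (-0.81 to -0.16).

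Casp1, at chr9:5298517-5307265, encodes caspase-1. Macrophage-like cells had 50.5 CPM in WT (46.7 to 54.6) against 45.9 CPM in EC-iCD45KO (43.6 to 48.2), for a log2 ratio of -0.14 (-0.27 to -0.01). Dendritic cell-like cells had 41.8 and 39.3 CPM, EC-like cells 35.0 and 36.2 CPM, and B-like cells 33.7 and 62.3 CPM, the last from 444 and 57 UMIs. Neutrophil-like cells, highest for Nlrp3 and Il1b, had 31.9 and 25.6 CPM of Casp1, from 21 and 47 UMIs. SMC-like cells had 8.31 and 9.55 CPM. The thinned share in EC-like cells was 3.51% (2.85 to 4.27) and 4.02% (3.31 to 4.83). The class with the lowest share in WT, chosen for that value, was chondrocyte-like cells, with 0.685% in WT (0.187 to 1.74) against 0.971% in EC-iCD45KO (0.0246 to 5.29), at median depths of 1649 and 1928.5 UMIs. In EC-iCD45KO the lowest was 0.807% in erythroid-like cells, with an upper limit of 4.41% from 124 cells, so the EC-like share was not above the limits of either class there. The adaptor Pycard, which joins NLRP3 to caspase-1, stood at 189 and 188 CPM in macrophage-like cells, and the pore protein gene Gsdmd at 58.4 and 50.2 CPM.

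Il18, the other caspase-1 substrate, lies at chr9:50554827-50581840. Macrophage-like cells had 31.8 CPM in WT (28.8 to 35.0) against 25.1 CPM in EC-iCD45KO (23.5 to 26.9), for a log2 ratio of -0.34 (-0.51 to -0.17), in the other direction to Il1b. Within the class, interferon-like cells had the highest level, at 83.3 and 46.7 CPM, a ratio of -0.84 (-1.43 to -0.27). Resident-like cells had 29.3 and 38.5 CPM, monocyte-derived-like cells 28.4 and 28.1 CPM and foamy Trem2-like cells 17.4 and 21.1 CPM, with intervals of their ratios that all included 0. Interferon-like cells held 24.2% of the class's Il18 UMIs in WT and 4.11% in EC-iCD45KO. Without them, the class had 26.6 and 24.6 CPM and a ratio of -0.11 (-0.30 to 0.08), an interval that included 0. Neutrophil-like cells had 38.0 and 21.2 CPM, from 25 and 39 UMIs. Of macrophage-like cells, 3.21% and 2.43% had an Il18 UMI after thinning (10.5% and 9.89% unthinned). The lowest shares were 0 of 159 lymphatic EC-like cells and 0 of 75 Schwann-like cells in WT, which allow up to 1.89% and 4%, and 0 of 124 erythroid-like cells in EC-iCD45KO, which allows up to 2.42%. The median depths were 1263, 1557 and 1256 UMIs in the same order, and the Schwann-like limit lay above the macrophage-like share. The exact upper limit in erythroid-like cells was 2.93%, so the EC-iCD45KO macrophage-like share of 2.43% (2.06 to 2.84) did not stand clear of it. Lymphatic EC-like cells had 4.27% (1.40 to 9.69) in EC-iCD45KO, from 117 cells. Bco2 and Tex12 overlap Il18 on the other strand, with 92 and 4 UMIs in WT and 141 and 13 in EC-iCD45KO.

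Tnf, at chr17:35199381-35202007 on the minus strand, was highest among whole classes in neutrophil-like cells. These had 389 CPM in WT (343 to 440) against 659 CPM in EC-iCD45KO (623 to 698), for a log2 ratio of 0.76 (0.57 to 0.96). In WT the Trdc cluster of T/NK-like cells, at 412 CPM, and the Mrc1 cluster of macrophage-like cells, at 402 CPM, lay within the neutrophil-like interval. The thinned share of neutrophil-like cells with a Tnf UMI was 26.3% (20.9 to 32.3) and 35.1% (31.7 to 38.7), against 4.81% and 6.53% in SMC-like cells. Macrophage-like cells, with 280 CPM (271 to 289) and 301 CPM (295 to 307), held 33.7% and 64.7% of all Tnf UMIs, and their ratio was 0.11 (0.05 to 0.16). Foamy Trem2-like cells had 243 and 352 CPM, a ratio of 0.54 (0.37 to 0.71), but the Fabp5 sub-cluster alone had 393 and 359 CPM, a ratio of -0.13 (-0.31 to 0.06). Resident-like cells had 327 and 384 CPM, a ratio of 0.23. T/NK-like cells had 180 and 237 CPM, and in the Trdc cluster Tnf stood at 412 and 328 CPM, a ratio of -0.33 (-0.57 to -0.10). The 11 macrophage markers summed to 3615 CPM in WT and 6997 CPM in EC-iCD45KO neutrophil-like cells, none at 0, and their part in the Tnf value was not tested. EC-like cells had 66.8 and 71.3 CPM, a ratio of 0.09 (-0.07 to 0.26), and shares of 5.82% and 7.45% that lay within the SMC-like intervals. Of the TNF receptors, Tnfrsf1a stood at 122 and 151 CPM in EC-like cells, a ratio of 0.31, and Tnfrsf1b at 172 and 242 CPM in neutrophil-like cells, a ratio of 0.50.

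Il6, at chr5:30013114-30019981, had 479 UMIs in WT and 1149 in EC-iCD45KO. Fibroblast-like cells had 41.4 CPM in WT (35.4 to 48.2) against 86.9 CPM in EC-iCD45KO (79.6 to 94.7), for a log2 ratio of 1.07 (0.82 to 1.33), and held 34.7% and 45.1% of its UMIs. The thinned share of fibroblast-like cells with an Il6 UMI was 3.37% (2.49 to 4.46) and 7.73% (6.43 to 9.20), and 5.65% and 11.9% unthinned, against 0.109% and 0 of 428 T/NK-like cells, which allows up to 0.701%. T/NK-like median depths were 1970.5 and 2572.5 UMIs. Both fibroblast-like clusters were higher in EC-iCD45KO. The Sfrp4 cluster had 67.8 and 103 CPM, a ratio of 0.60 (0.28 to 0.93), and the C7 and Clec3b cluster 23.7 and 68.5 CPM, a ratio of 1.53 (1.10 to 1.98). The Sfrp4 cluster held 15.5% and 18.3% of the fibroblast-like cells and 65.7% and 63.5% of their Il6 UMIs.

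Il6 was also higher in EC-like cells, at 10.5 CPM in WT (8.40 to 12.9) against 17.0 CPM in EC-iCD45KO (14.5 to 19.7), for a log2 ratio of 0.70 (0.32 to 1.08). The Ackr1 cluster had 13.6 and 27.3 CPM, a ratio of 1.01 (0.53 to 1.51). The Gja5 cluster had 8.16 and 9.28 CPM and the Gpihbp1 cluster 7.83 and 5.00 CPM, both with ratios whose intervals included 0. SMC-like cells had 9.63 and 16.7 CPM, a ratio of 0.79 (0.42 to 1.18). In WT 67 of the 80 SMC-like UMIs lay in 25 cells of the Vcam1 cluster, and in EC-iCD45KO 180 of 220 in 39 cells. The thinned shares of SMC-like cells were 0.493% (0.213 to 0.969) and 0.863% (0.535 to 1.32), with overlapping intervals. Macrophage-like cells had 1.85 and 2.73 CPM. Neutrophil-like cells had 0 UMIs in WT, which allows up to 4.56 CPM, and 8.70 CPM in EC-iCD45KO, from 16 UMIs. The signalling chain gene Il6st stood at 229 and 194 CPM in EC-like and 204 and 214 CPM in fibroblast-like cells. The receptor gene Il6ra stood at 86.0 and 101.3 CPM in macrophage-like and 88.1 and 138 CPM in neutrophil-like cells.

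Genes whose mean reached 5 CPM were counted as past 2-fold when they differed at least 2-fold either way, which held for 4.92% of them in EC-like, 4.92% in SMC-like, 6.38% in fibroblast-like, 2.51% in macrophage-like, 6.79% in dendritic cell-like and 17.3% in neutrophil-like cells. Genes higher in EC-iCD45KO made up 1.45%, 1.92%, 1.80%, 0.597%, 2.68% and 6.41% of those counted in the same order of classes, and lower genes 3.47%, 3%, 4.58%, 1.92%, 4.12% and 10.9%. No member was past 2-fold in EC-like cells (of 9 above the minimum), macrophage-like cells (of 8) or neutrophil-like cells (of 9). Il1rn was past it in dendritic cell-like cells (of 8), Il1b, Il1rn and Nlrp3 in SMC-like cells (of 8), and Il1b, Il1rn and Il6 in fibroblast-like cells (of 9), all higher in EC-iCD45KO. The members' median log2 ratio was 0.32 in EC-like, 0.73 in SMC-like, 0.48 in fibroblast-like, 0.13 in macrophage-like, 0.08 in dendritic cell-like and -0.12 in neutrophil-like cells. Over all genes above the minimum the medians ran from -0.072 to -0.002. Of the members past 2-fold in SMC-like or fibroblast-like cells, Il1b, Il1rn and Nlrp3 were highest in neutrophil-like cells among the named classes. So were Il1a, Il1r2 and Tnf, which were not past 2-fold, and Il6 was highest in fibroblast-like cells. The part of other cells in the SMC-like and fibroblast-like values was not tested.

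**Figure D5:**
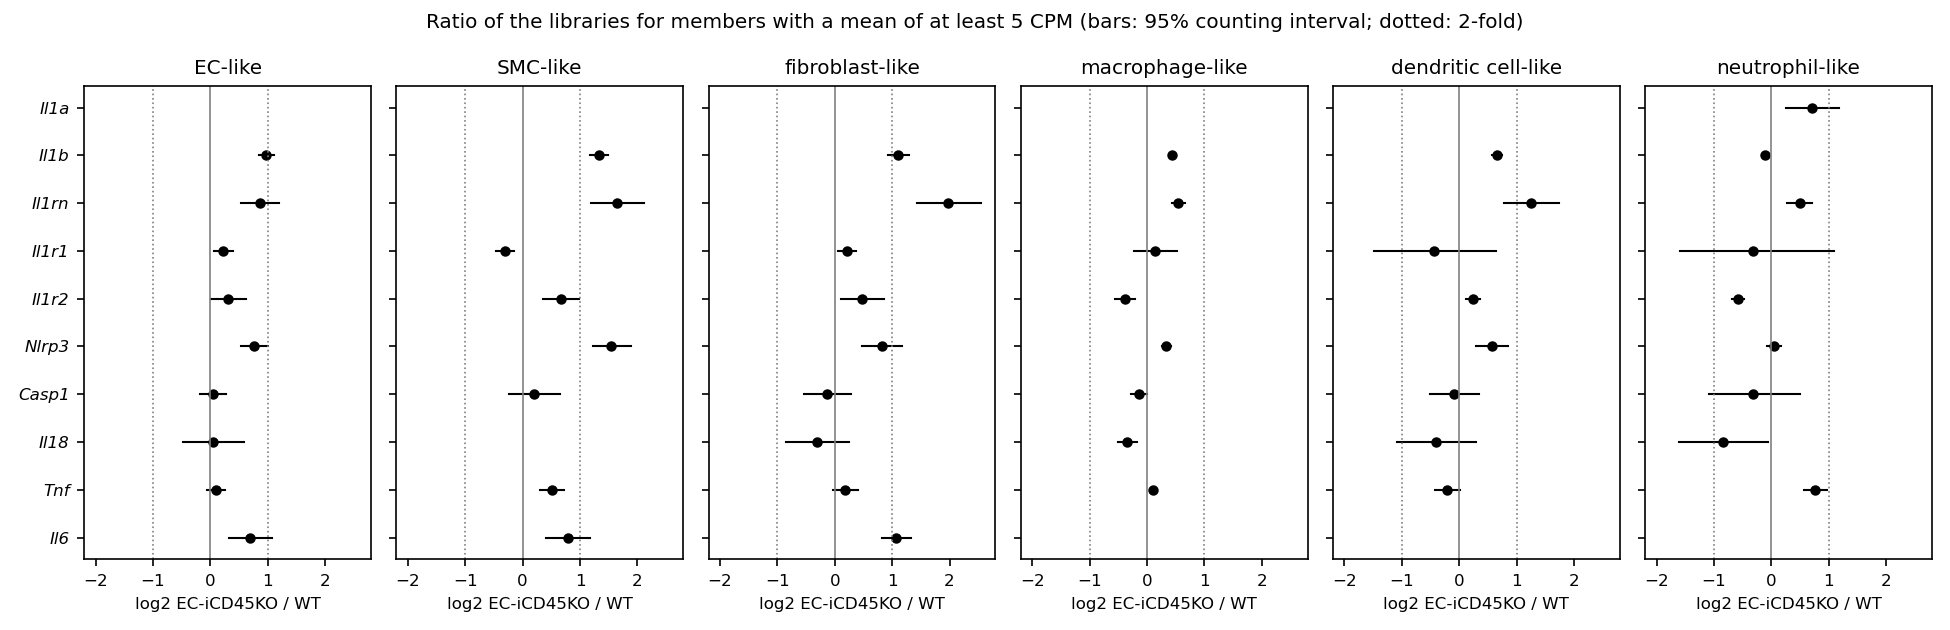
Log2 ratio of EC-iCD45KO over WT for each member whose mean reached 5 CPM, in 6 classes, with 95% counting intervals as bars and dotted lines at 2-fold. Values beyond the right dotted line are Il1b, Il1rn and Nlrp3 in SMC-like, Il1b, Il1rn and Il6 in fibroblast-like, and Il1rn in dendritic cell-like cells.

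The rest of the pathway was read from 6 lists of 75 genes, 73 of them in the matrices. Of the 15 NF-kB factors and response genes, 3 were at least 2-fold higher in EC-like, 2 in SMC-like, 4 in fibroblast-like, 1 in macrophage-like, 3 in dendritic cell-like and 2 in neutrophil-like cells, and none was at least 2-fold lower in these classes. The shares of all genes past 2-fold in each direction are those given above, with more lower than higher in each class. The list's median log2 ratio was 0.01, 0.05, 0.18, 0.10, 0.17 and 0.19 in the same order, and the genes named next are chemokines. Ccl2, which draws monocytes, stood at 77.1 CPM in WT and 351 CPM in EC-iCD45KO fibroblast-like cells, a log2 ratio of 2.19, at 52.5 and 111 CPM in EC-like cells, a ratio of 1.08, and at 36.7 and 102 CPM in SMC-like cells. Cxcl1, which draws neutrophils, stood at 134 and 339 CPM in fibroblast-like, 59.7 and 129 CPM in EC-like and 135 and 333 CPM in macrophage-like cells. Cxcl2 stood at 437 and 1004 CPM in EC-like cells and 221 and 717 CPM in SMC-like cells. The neutrophil and macrophage markers given above were also higher in EC-like, SMC-like and fibroblast-like cells, and their part in these chemokine values was not tested.

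In the IL-1 receptor signalling list, none of 10 genes such as Myd88 and Irak4 was past 2-fold in EC-like, SMC-like, fibroblast-like, macrophage-like or dendritic cell-like cells, and 1 was higher in neutrophil-like cells. That gene was Tollip, named after its value was seen, with 5 and 28 UMIs. In the inflammasome list of 15 genes, 1 of 12 was at least 2-fold higher in EC-like, 0 of 8 in SMC-like, 1 of 12 in fibroblast-like, 1 of 14 in macrophage-like, 2 of 14 in dendritic cell-like and 1 of 14 in neutrophil-like cells, and 2 were lower in each of fibroblast-like and neutrophil-like cells. Nlrp1b, another inflammasome sensor, stood at 7.70 CPM in WT and 50.02 CPM in EC-iCD45KO macrophage-like cells, a log2 ratio of 2.70 (2.41 to 3.01). It stood at 15.2 and 39.7 CPM in neutrophil-like cells. Gbp5, an interferon-induced gene that promotes NLRP3 assembly, went the other way in neutrophil-like cells, from 39.5 to 4.90 CPM, on 26 and 9 UMIs. Fibroblast-like cells had less Txnip, 250.4 and 107 CPM, and less Aim2, 39.2 and 15.1 CPM. In the TNF list, 11 genes reached the minimum in each class, and 1 was at least 2-fold lower in each class except neutrophil-like cells. There 1 was higher, Tradd, named after its values were seen, from 4 and 25 UMIs, and the list median log2 ratio was 0.48 against -0.07 over all genes. The lower gene was the lymphocyte cytokine gene Ltb, lower in EC-like (128 and 14.2 CPM), SMC-like (77.0 and 11.1), fibroblast-like (132 and 18.1), macrophage-like (36.9 and 5.69) and dendritic cell-like cells (216 and 90.2). The 12 T/NK markers moved with it, from 502 to 109 CPM in EC-like, 349 to 68.0 in SMC-like and 526 to 119 CPM in fibroblast-like cells, as did the 9 B markers, from 1435 to 111 CPM in EC-like, 737 to 63.5 in SMC-like and 1574 to 123 CPM in fibroblast-like cells, and their part in the Ltb values was not tested. In the IL-6 family list of 11 genes, 7 to 9 reached the minimum in a class, none was lower, and 1 was higher in EC-like, SMC-like and dendritic cell-like cells. It was Osm, a cytokine gene of myeloid cells, at 10.4 and 23.1 CPM in EC-like, 3.37 and 14.6 CPM in SMC-like and 41.2 and 84.7 CPM in dendritic cell-like cells. The part of the higher neutrophil and macrophage markers in the EC-like and SMC-like Osm values was not tested. Of 12 other IL-1 family genes, 10 were in the matrices and 2 to 6 of them reached the minimum in a class. At least 2-fold lower were 1 of 5 in EC-like, 1 of 4 in SMC-like, 2 of 6 in fibroblast-like, 2 of 6 in dendritic cell-like and 1 of 5 in neutrophil-like cells, and 1 was higher, in neutrophil-like cells. The IL-18 receptor gene Il18r1, named after its values were seen, was among the lower genes in EC-like (12.0 and 5.53 CPM), SMC-like (10.6 and 2.43), fibroblast-like (15.96 and 4.19) and dendritic cell-like cells (15.9 and 2.75). The T/NK markers given above were also lower in the first 3 of these. The other lower genes were Sigirr in fibroblast-like, Il18rap in dendritic cell-like and Il18bp in neutrophil-like cells, the last from 8 and 11 UMIs. Il33, the alarmin, had a ratio of 0.55 in fibroblast-like cells, with 227 and 332 CPM, and of -0.99 in SMC-like cells, with 33.3 and 16.8 CPM. The higher gene, Il1f9, stood at 111 and 242 CPM in neutrophil-like cells.

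The genes whose levels ran most like each member were found by Pearson's r of log2(CPM + 1) over 25 points, the named classes in each library with at least 100 cells, among 10731 genes. The points share libraries and cell-class structure, so r is a description. For Il1b they were Nlrp3 (r = 0.971), Ccrl2 (0.962) and the IL-6 family cytokine gene Osm (0.953), and for Nlrp3 they were Il1b, Ccl3 (0.965) and Ccrl2 (0.963). For Il1a they were 1600002D24Rik, the neutrophil marker Mmp9 (both 0.945) and F630028O10Rik (0.933), and for Il1rn Pilra (0.962), Klra2 (0.960) and Lilr4b (0.951). For Il1r2 they were Lmnb1 (0.925), Rab11fip1 (0.905) and Ifitm1 (0.894), and for Tnf Cpeb2 (0.934), Rgs2 (0.928) and Rab8b (0.922). Il1r1 ran with Rora (0.899) and Atp10a (0.863), and Il6 with the fibroblast marker Pi16 (0.842), Shisa3 (0.831) and Cyp1b1 (0.823). Casp1 ran with Jpt1 (0.886) and Rgs19 (0.879), and Il18 with Gm33370 (0.881), Slc37a2 (0.855) and Stard3 (0.853). No member other than Il1b and Nlrp3 had another member among its 3 nearest genes.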

How the data were processed

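Single-cell RNA was counted with Cell Ranger 7.1.0 on mm10, per the submitters' processing notes, and the deposited counts of UMIs per gene and barcode were used as they stand. Strand and intron settings are not given in the sources used here. Barcodes needed 300 genes or more and no more than 10% mitochondrial UMIs. Scrublet's own threshold called 2 and 0 cells and had not worked, so the 10% with the highest scores per library were removed. Cells were clustered jointly with scanpy 1.11.5 and Leiden at resolution 1, on 2000 variable genes without the members, the listed pathway genes or Ptprc, and with no library correction. The thresholds for naming clusters were chosen with the data in view, so shares of classes may depend on them. Cells that libraries share by barcode were kept.

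UMIs were summed per class and library. Intervals are exact (Poisson, Clopper-Pearson or conditional binomial) and cover counting error only. Shares were taken after thinning to 1000 UMIs, leaving out shallower cells. Positions and overlaps come from an annotation of GRCm38, the mm10 assembly, in which 32158 of 32285 gene identifiers matched.

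The members and lists were chosen with earlier results of these data known. Named list genes are the up to 5 with the largest log2 ratio per class, past 2-fold and with a mean of at least 20 CPM, besides the receptors, Il33, Pycard and Gsdmd. Osm in EC-like and SMC-like cells and Il18bp in neutrophil-like cells lay below that mean. The rule did not cover dendritic cell-like cells, so list genes named there also fall outside it. Alternatives were other cell filters, doublet removal, clustering, scaling and CPM minimums. Statistics were tested on simulated data. For Casp1 and Il1r1, 1 of the nearest genes each is not reported here.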

Additional observations from a re-analysis of the deposited data

Results flagged for a closer look

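For 3 members the log2 ratio of EC-iCD45KO over WT had opposite signs in different classes among the 6 compared with all genes (EC-like, SMC-like, fibroblast-like, macrophage-like, dendritic cell-like and neutrophil-like), with counting intervals on either side of 0. Il1b was higher in SMC-like cells (1.33) and lower in neutrophil-like cells (-0.12), but the latter ran from -0.232 to -0.003 over its alternatives. Il1r1 was higher in EC-like cells (0.23) and lower in SMC-like cells (-0.31). Il1r2 was higher in SMC-like cells (0.66) and lower in neutrophil-like cells (-0.58), with SMC-like shares of 2.77% and 2.79% at 1000 UMIs and 1.33% and 4.10% at 2000 UMIs. Il1r2 was also higher in dendritic cell-like (0.25), EC-like (0.32) and fibroblast-like cells (0.48), and lower in macrophage-like cells (-0.38). With 1 library per group the difference between classes was not tested.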

How the results depend on the processing

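No paired analysis was possible because there was only 1 library per group. None of the 7 log2 ratios followed through the alternatives changed sign. Il1b in macrophage-like cells was 0.441, and became 0.489 with each library centred before clustering, 0.498 with TMM scaling and 0.383 as a mean of single-cell CPM. In neutrophil-like cells Il1b was -0.118, and became -0.003 with stricter cell filters, -0.201 without doublet removal, -0.067 with centred libraries, -0.010 with TMM, -0.169 without mitochondrial, ribosomal protein and haemoglobin genes and -0.232 as a single-cell mean. The cause was not tested. Alternatives chosen after seeing the data included leaving out interferon-like cells, which gave 0.626 for Il1b, 0.693 for Il1rn and -0.109 for Il18 in macrophage-like cells. Weighting clusters equally gave 0.046 for Il1r1 in fibroblast-like cells. Il6 in fibroblast-like cells ran from 0.904 to 1.297 and Il1r1 in EC-like cells from 0.099 to 0.259. Genes past 2-fold numbered 542 in EC-like, 531 in SMC-like, 707 in fibroblast-like, 240 in macrophage-like, 647 in dendritic cell-like and 1655 in neutrophil-like cells. With a minimum of 20 CPM they numbered 219, 206, 300, 83, 177 and 523, which were 3.14%, 3.19%, 4.44%, 1.42%, 3.05% and 9.59% of the genes counted, and with no minimum and 0.5 CPM added 1308, 1315, 2128, 595, 3428 and 6109. Shares moved beyond their intervals in 16 of 16 cases with thinning to 2000 UMIs and 12 of 16 without thinning, so they hold only for the stated depth. Neutrophil-like values of Casp1, Il1r1, Il18 and Il6 rest on under 50 UMIs in each library.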

Other observations

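Nlrp1b, chosen after its values were seen, was higher in EC-iCD45KO beyond macrophage-like and neutrophil-like cells as well. It had 1.67 CPM in WT and 12.5 CPM in EC-iCD45KO EC-like cells, from 14 and 129 UMIs, and 2.35 and 39.1 CPM in dendritic cell-like cells, from 4 and 142 UMIs. The macrophage and neutrophil markers were also higher in EC-iCD45KO EC-like cells, and their part in the Nlrp1b value there was not tested.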
